A study of Homo sapiens with 30 samples.

Results

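Whole-cell poly(A) RNA of QKI-knockout human embryonic stem cells on their way to heart muscle was compared between day 8 and day 4 (D8 and D4) of differentiation. The D8 KO group held 3 libraries (replicates 1, 2 and 4) and the D4 KO group held 3 (replicates 1, 2 and 3), together 6 of the 30 libraries in the study. The libraries were chosen by their labels alone, and all genes were described. The cells were Hues6, a human embryonic stem cell line, labelled knockout (KO) for QKI, an RNA-binding protein that regulates splicing. Both KO groups had been started with 1.25 uM CHIR, an inhibitor of GSK3 that activates WNT signalling, and 1.5 ng/mL BMP4. They then received C59, which blocks the secretion of WNT proteins. D4 was labelled as the stage of cardiac progenitors and D8 as that of cardiomyocytes, collected once the cells beat. Wild-type (WT) Hues6 at D8 and at D4, with 3 libraries each, stand beside the KO course. Values of day 0 (D0) KO and WT cells, listed without a CHIR or BMP4 dose, are also given below. So are values of D8 nuclear RNA of both genotypes, listed with the same doses as the whole-cell libraries of their genotype. The WT libraries at D4 and D8 had received 1.5 uM CHIR and 1.5 ng/mL BMP4. Genotype and CHIR dose therefore cannot be told apart wherever the KO course is set against the WT course, while both KO days shared the genotype label and the CHIR dose. Neither the labels nor the counts tell whether the KO libraries of both days came from the same clone or whether any were mixed up. The values of QKI and ZNF558, given below, differed between libraries that share the KO label. The labels do not say how many KO clones were used or whether the libraries of a group came from separate cultures, so each p-value rests on the spread among these libraries, which may be technical.

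In this protocol a pulse of WNT and BMP signalling turns pluripotent cells into mesoderm, and a later block of WNT steers the mesoderm to a cardiac fate. Cardiac progenitors are marked by transcription factors such as NKX2-5, TBX5 and MEF2C, which act with GATA factors and serum response factor on the genes of the contractile apparatus. Young cardiomyocytes assemble sarcomeres, build the calcium stores that couple excitation to contraction, raise their mitochondrial energy supply and divide more slowly. QKI is known to regulate the splicing of muscle transcripts.

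The targeted gene checks the labels. QKI (ENSG00000112531.12) stood at 340, 329 and 336 CPM (counts per 1000000 of the scaled library total) in the libraries labelled D8 KO, against 88.5, 68.2 and 78.0 CPM in D4 KO. The D8 libraries were thus all higher, by 2.10 on the log2 scale (SE 0.09, edgeR adjusted p 1.9e-14). In the WT course QKI averaged 324 ± 42 CPM at D8 and 146 ± 8.9 CPM at D4 (SD, n = 3 each). The KO course exceeded the WT course by 0.95 (log2, edgeR adjusted p 5.2e-06). Its D0 KO level was 39.4 ± 3.3 CPM (SD, n = 3) and its D0 WT level 293 ± 7.4 CPM. In D8 nuclear RNA the libraries labelled KO held 473, 534 and 509 CPM and the WT ones 187, 139 and 152 CPM. The counts do not tell functional from truncated transcripts. The D8 libraries labelled KO thus held QKI RNA in the range of D8 WT, and "D8 KO" means here and in all results the libraries that carry that label.

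Totals ran from 62162704 to 72694787 counts in D8 KO and from 42065821 to 53030999 in D4 KO. Mitochondrially encoded genes took 8.57 to 9.73% of the counts in D8 KO and 10.7 to 12.4% in D4 KO. Libraries of 1 group differed by more than sampling noise (chi-square per degree of freedom 5.48 to 29.8), so none was a second deposit of another. The cardiomyocyte markers TNNT2, MYH6, MYL7 and ACTN2 were higher in each D8 KO library than in any D4 KO library, with the values given below. The pluripotency factor POU5F1, at 2234 CPM on average in D0 KO, was still at 194 to 211 CPM in D4 KO and at 2.19 to 3.62 CPM in D8 KO. In bulk RNA a change in the number of cells of a type and a change in RNA per cell cannot be told apart, which holds for every gene below.

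The step between the days was wide. Of 39126 genes in the table, 21761 had enough counts to be tested, and edgeR called 16325 of them at an adjusted p under 0.05 (75% of those tested). D8 KO was higher for 7856 (36.1%) and lower for 8469 (38.9%). A change of at least 2-fold was called upward for 3276 genes (15.1%) and downward for 4762 (21.9%). The 3 libraries of one day did not overlap with those of the other for 17081 genes (78.5%). The median log2 change of all tested genes was -0.06, and it moved to -0.22 when libraries were scaled to their total counts alone. Under that scaling 40.1% of the called genes were higher, against 48.1% in the TMM-scaled fit. A called gene is therefore no rarity here, and each group of genes is read against these shares.

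RefSeq gives the bases before the start sites of these genes for the build GRCh38.p14. As examples, the 250 bases before the start of 3 strongly rising heart genes and of 2 falling cell-division genes are printed on the gene's strand, from 5′ to 3′. These genes were picked by hand and do not stand for their groups. They are HSPB7 (chr1:16018044-16018293, minus strand), SMPX (chrX:21758117-21758366, minus), MYH6 (chr14:23408274-23408523, minus), CCNB2 (chr15:59104896-59105145, plus) and CDC20 (chr1:43358731-43358980, plus). In the first 3, capitals mark a MEF2 site or a TATA box (TATAAA). In the other two they mark CCAAT boxes (CCAAT) and the CHR element (TTTGAA) of cell-cycle promoters, on either strand.
HSPB7: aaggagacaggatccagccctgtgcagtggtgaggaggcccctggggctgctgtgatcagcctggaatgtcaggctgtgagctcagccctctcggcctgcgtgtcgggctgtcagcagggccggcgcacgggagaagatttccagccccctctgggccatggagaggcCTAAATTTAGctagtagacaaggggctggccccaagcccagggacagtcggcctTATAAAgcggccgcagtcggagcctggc
SMPX: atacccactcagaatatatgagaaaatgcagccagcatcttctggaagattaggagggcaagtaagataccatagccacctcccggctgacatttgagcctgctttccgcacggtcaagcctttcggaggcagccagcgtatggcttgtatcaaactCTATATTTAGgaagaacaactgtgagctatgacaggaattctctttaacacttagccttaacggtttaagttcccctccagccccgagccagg
MYH6: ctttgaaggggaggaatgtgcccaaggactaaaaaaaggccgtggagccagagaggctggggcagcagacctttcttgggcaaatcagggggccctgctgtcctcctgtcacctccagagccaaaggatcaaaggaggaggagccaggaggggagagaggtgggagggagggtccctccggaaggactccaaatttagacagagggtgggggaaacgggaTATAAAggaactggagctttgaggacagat
CCNB2: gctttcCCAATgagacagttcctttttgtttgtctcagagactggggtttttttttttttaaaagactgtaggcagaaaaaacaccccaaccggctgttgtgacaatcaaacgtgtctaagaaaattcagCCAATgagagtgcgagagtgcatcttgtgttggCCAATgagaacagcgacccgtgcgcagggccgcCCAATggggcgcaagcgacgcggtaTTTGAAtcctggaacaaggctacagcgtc
CDC20: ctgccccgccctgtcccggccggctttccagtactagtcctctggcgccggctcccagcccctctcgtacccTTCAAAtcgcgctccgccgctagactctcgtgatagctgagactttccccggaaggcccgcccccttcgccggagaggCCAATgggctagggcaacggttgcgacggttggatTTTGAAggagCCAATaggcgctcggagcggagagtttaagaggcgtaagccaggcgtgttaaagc
The MEF2 site begins 82 bases before the start of HSPB7 and 93 before that of SMPX. A TATA box begins 28 bases before the start of HSPB7 and 30 before that of MYH6. These matches describe letters and not bound sites. Over all 27305 promoters of this length, searched on both strands, 2.9% held the MEF2 site, 1.14% the CArG box bound by serum response factor, 9.37% the GATA motif AGATAA and 11.1% TATAAA. Promoters were found for 23 of the 33 tested sarcomere genes, of which 26.1%, 21.7%, 39.1% and 21.7% held these motifs. HSPB7 and SMPX are not members of that sarcomere list. The CCAAT box stood in 33% of all promoters, in 73.1% of the 26 found for mitosis genes and in 60.7% of the 28 found for DNA replication genes. The CHR element stood in 13.6% of all, in 50% of the mitosis promoters and in 3.57% of the replication promoters.

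The 12 largest rises among called genes with a mean of at least 10 CPM over the 6 libraries and no overlap between the days included several genes of striated muscle. CSRP3, a protein of the Z-disc, stood at 47.3, 62.1 and 60.0 CPM in D8 KO and had no count in any D4 KO library, which is at least 2890-fold higher against a floor of 3 counts over the D4 group. MYOZ2, another Z-disc protein, had 41.3, 47.0 and 52.0 CPM in D8 KO against 1 count in all of D4 KO, a ratio of 7160 with a 95% counting interval of 1290 to 283000. ABRA, an actin-binding activator of serum response factor signalling, had 48.5, 51.7 and 29.3 CPM in D8 KO against 2 counts in D4 KO (ratio 3360, interval 931 to 27800). Such intervals and floors cover counting error only.

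HSPB7, a small heat shock protein of heart and skeletal muscle, reached 871, 1056 and 1107 CPM in D8 KO, against 0.361, 0.0807 and 0.262 CPM in D4 KO (log2 12.03, SE 0.22, edgeR adjusted p 4.9e-20). SMPX, a small protein of striated muscle, reached 235, 308 and 334 CPM against 0.103, 0.121 and 0.0218 CPM (log2 11.72, SE 0.25). PLN, phospholamban, the inhibitor of the calcium pump of the sarcoplasmic reticulum, reached 240, 277 and 310 CPM in D8 KO against 0.206, 0.0202 and 0.109 CPM in D4 KO (log2 11.18, SE 0.23). A lack of overlap between the days was a condition of the choice for all of these. A2M, a secreted protease inhibitor, ASB2, a muscle subunit of a ubiquitin ligase, WNT2, a WNT ligand, FSD2, MYH6 and RRAD, a small GTPase that restrains calcium channels, complete these 12. Their log2 changes ran from 9.80 for RRAD to 12.84 for A2M. Where D4 KO counts were this few, 1 library moved the fitted value. Without D4 KO replicate 1, PLN stood at 12.05, MYOZ2 at 14.43, A2M at 12.20 and FSD2 at 9.69, and without D4 KO replicate 2 A2M stood at 14.11 and FSD2 at 11.29.

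The 12 largest falls under the same limits were led by noncoding and stem cell RNAs, with log2 changes from -6.36 to -11.71. MEG3, ESRG, MIR302B, EGFLAM-AS4, CDH22 and SFRP2 are described with their groups below. TRPA1, an irritant-sensing ion channel, had 0.201, 0.158 and 0.219 CPM in D8 KO against 39.3, 34.4 and 29.6 CPM in D4 KO (log2 -7.47, SE 0.21, edgeR adjusted p 1.5e-17). CALB1, a calcium-binding protein, fell by 7.32 (SE 0.29), SLC28A2, a nucleoside transporter, by 6.64 (SE 0.18) and SEMA5B, a semaphorin guidance protein, by 6.51 (SE 0.17) on the log2 scale. The other two were RP11-431J24.2 and RP11-426L16.8, which fell by 8.85 and by 7.81. That the libraries of the days did not overlap was a condition for entering these 12 and not a result.

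**Figure D1:**
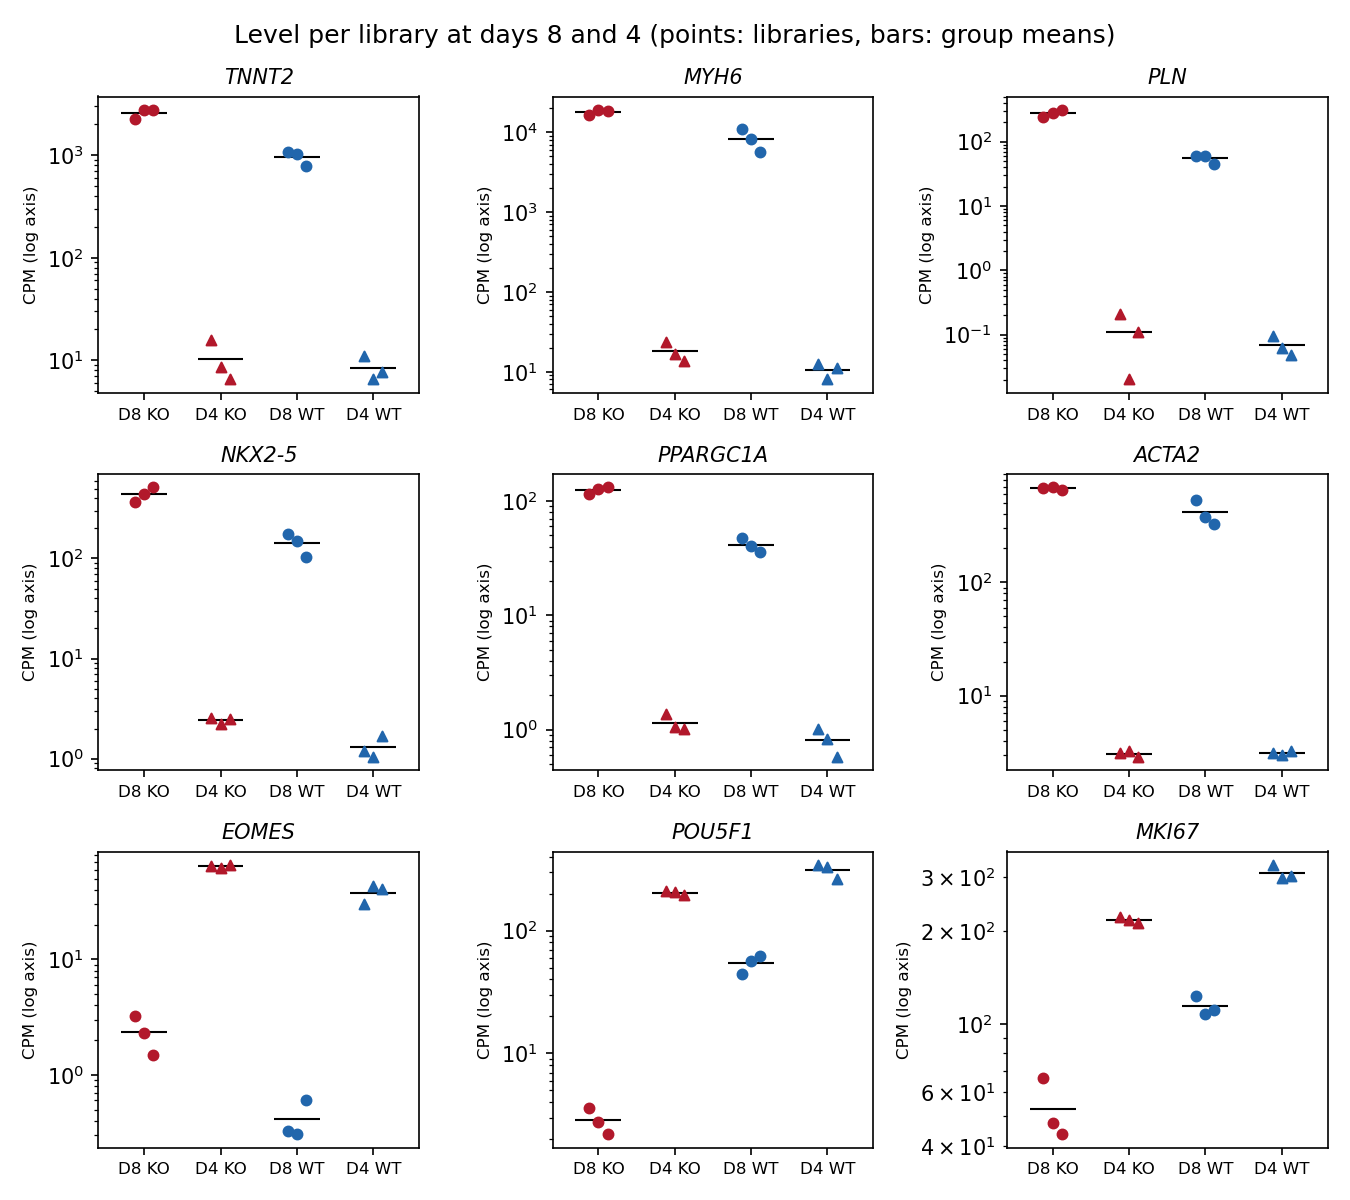
CPM on a log axis of 9 genes in each library of D8 KO, D4 KO, D8 WT and D4 WT; points are libraries, circles at D8 and triangles at D4, and bars are group means. In all 9 panels the 3 D8 KO points lie apart from the 3 D4 KO points, above them for the 6 genes of muscle and energy supply and below them for EOMES, POU5F1 and MKI67.

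Genes of the sarcomere, the contractile unit, rose almost without exception. Of 33 tested members (of 34 listed), 32 rose and 1 fell, with a median log2 change of 5.60, against -0.06 over all genes. That median is the same with CSRP3 at its bound, and it was 6.02 without D4 KO replicate 1. Together they summed to 44789, 51250 and 51213 CPM in D8 KO and to 1439, 1197 and 1160 CPM in D4 KO. MYH6, the alpha myosin heavy chain, had 16478, 19056 and 18561 CPM in D8 KO against 23.8, 16.6 and 13.5 CPM in D4 KO (log2 9.97, SE 0.27, edgeR adjusted p 1.1e-17). Its neighbour MYH7 is a close copy, so reads may have been divided between them in a way the counts do not show.

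TNNT2, cardiac troponin T, had 2237, 2738 and 2770 CPM in D8 KO against 15.9, 8.55 and 6.54 CPM in D4 KO (log2 7.95, SE 0.28). MYL7, the atrial regulatory light chain, had 3698, 4084 and 4370 CPM against 84.1, 66.1 and 59.2 CPM (log2 5.86, SE 0.16). ACTN2, which anchors actin at the Z-disc, had 85.0, 101 and 100 CPM in D8 KO against 2.39, 1.81 and 2.12 CPM in D4 KO (log2 5.49, SE 0.16, edgeR adjusted p 2.8e-17). ACTN2 reached a higher level in D8 WT, where it averaged 402 ± 94 CPM (SD, n = 3). Its rise was 2.21 smaller in the KO course than in the WT course (log2, edgeR adjusted p 3.8e-07). MYPN, a partner of ACTN2, rose to 6.20, 7.28 and 8.63 CPM in D8 KO against 1 count in D4 KO (ratio 1130, interval 202 to 44500), and its fitted log2 change moved to 11.78 without D4 KO replicate 2. MYOM3, an M-band protein, was the 1 member that fell, by 1.04 on the log2 scale.

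Calcium handling and the ion channels followed with more exceptions. Of 28 tested members (of 29), 21 rose, 5 fell and 2 did not pass, with a median of 2.45. RYR2, the release channel of the calcium store, had 204, 234 and 234 CPM in D8 KO against 7.91, 5.81 and 5.45 CPM in D4 KO (log2 5.12, SE 0.16, edgeR adjusted p 6.5e-17). ATP2A2, the calcium pump that PLN inhibits, stood at 1130, 1256 and 1157 CPM in D8 KO against 388, 413 and 391 CPM in D4 KO (log2 1.57, SE 0.09). The pump was thus present on both days, while its inhibitor was very low in D4 KO, at the values given above. SLC8A1, the sodium-calcium exchanger, rose by 6.87 (SE 0.17) and CACNA1D, a subunit of an L-type calcium channel, by 4.56 (SE 0.21). GJA1 and GJC1, connexins of gap junctions, fell by 3.33 and by 0.91 on the log2 scale, and CACNA2D1 and KCNJ3 by 0.73 and by 2.90.

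Among cardiac transcription factors 28 of 31 tested (of 32) rose and 3 fell, with a median of 1.54. NKX2-5, a homeodomain factor of early heart cells, had 365, 441 and 513 CPM in D8 KO against 2.53, 2.20 and 2.51 CPM in D4 KO (log2 7.51, SE 0.20, edgeR adjusted p 9.3e-18). TBX5, a T-box factor of the first heart field, had 86.5, 104 and 113 CPM against 0.842, 0.645 and 0.545 CPM (log2 7.19, SE 0.25). MEF2C, a MADS-box activator of muscle genes, had 176, 214 and 222 CPM against 5.59, 2.94 and 2.75 CPM (log2 5.74, SE 0.24). IRX4, a ventricular homeodomain factor, had 42.1, 57.1 and 71.7 CPM in D8 KO against 0.636, 0.907 and 0.698 CPM in D4 KO (log2 6.26, SE 0.21). Of these 4, TBX5 and IRX4 were under 1 CPM in each D4 KO library. ISL1, a factor of second heart field progenitors, was at 40.8 CPM or more in each library of both days, with 67.0, 58.7 and 50.3 CPM in D8 KO against 40.8, 45.0 and 45.2 CPM in D4 KO (log2 0.43, SE 0.11, edgeR adjusted p 0.0015). The 3 that fell were FOXC1 and FOXC2, forkhead factors of mesoderm, and SALL4, a zinc finger factor of stem and progenitor cells.

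Secreted factors of the heart were mixed, with 12 of 18 higher, 5 lower and 1 not called (median 1.08). NPPA, atrial natriuretic peptide, had 129, 162 and 148 CPM in D8 KO against 0.464, 0.625 and 0.611 CPM in D4 KO (log2 8.02, SE 0.26, edgeR adjusted p 1.9e-14). NPPB, the B-type peptide, had 10.8, 8.72 and 7.48 CPM against 3.11, 3.97 and 4.38 CPM (log2 1.25, SE 0.25). CORIN, the protease that activates the NPPA product, rose by 7.95 (SE 0.23), VCAM1, an adhesion protein used to sort early cardiomyocytes, by 9.67 (SE 0.25) and WNT2 by 11.08 (SE 0.59).

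Genes of fatty acid use and mitochondrial energy supply rose as a block. Of 38 tested members (of 39), 36 rose, with a median of 1.57. TFAM, which packages mitochondrial DNA, did not pass (log2 0.12), and CPT1B fell. PPARGC1A, a coactivator that drives mitochondrial genes, had 114, 128 and 131 CPM in D8 KO against 1.38, 1.05 and 1.00 CPM in D4 KO (log2 6.75, SE 0.14, edgeR adjusted p 1.9e-19). CKM, muscle creatine kinase, had 428, 500 and 533 CPM against 3.85, 4.74 and 4.36 CPM (log2 6.82, SE 0.18). PDK4, a kinase that shuts pyruvate dehydrogenase, rose by 5.99 (SE 0.22) and CKMT2, the mitochondrial creatine kinase, by 3.97 (SE 0.21). COX6A2, the heart and muscle form of a cytochrome oxidase subunit, stood at 13.6, 16.9 and 15.8 CPM in D8 KO against 2 counts in D4 KO (ratio 1190, interval 328 to 9810). CPT1B, the muscle enzyme that admits fatty acids to mitochondria, had 0.495, 0.547 and 0.574 CPM in D8 KO against 1.56, 1.09 and 2.18 CPM in D4 KO (log2 -1.57, SE 0.25), so it was low on both days.

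Of the 13 protein-coding genes of the mitochondrial genome 4 fell and 9 did not pass (median -0.12). Other scalings, filters and sets of libraries called 5 or 6 of them lower and at most 1 higher, and the median was -0.28 under scaling to total counts. MT-CO1, a catalytic subunit of cytochrome oxidase, had 21995, 24596 and 25413 CPM in D8 KO against 23466, 29767 and 25083 CPM in D4 KO, ranges that overlap (log2 -0.12, edgeR adjusted p 0.42). MT-CYB fell by 0.57 on the log2 scale (SE 0.13, edgeR adjusted p 0.00053), MT-CO2 by 0.45 and MT-CO3 by 0.43. MT-ND6, the fourth, lies on the other strand of the mitochondrial DNA and its value is uncertain, because nothing here states the strand setting of the counting.

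Of 27 members of glycolysis and hypoxia, 13 rose, 9 fell and 5 did not pass (median 0.19). PDK1, a kinase that shuts pyruvate dehydrogenase, had 724, 764 and 760 CPM in D8 KO against 65.1, 50.5 and 46.6 CPM in D4 KO (log2 3.79, SE 0.12, edgeR adjusted p 6.3e-17). ENO3, muscle enolase, rose by 3.59 (SE 0.13) and HK1, a hexokinase, by 2.26 (SE 0.07). ADM, a vasodilator peptide induced by low oxygen, fell to 6.96, 6.42 and 8.15 CPM in D8 KO, against 77.3, 80.3 and 76.8 CPM in D4 KO (log2 -3.45, SE 0.14). PGK1, a glycolytic kinase, changed little (log2 0.36, SE 0.09, edgeR adjusted p 0.0018) and its call was lost under scaling to total counts (log2 0.19). LDHA, lactate dehydrogenase, was lower by a log2 change of -0.38 (SE 0.13, edgeR adjusted p 0.010), a call lost without D8 KO replicate 4 (-0.26).

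The machinery of cell division fell throughout. All 33 DNA replication genes and all 32 mitosis genes were lower in D8 KO, with medians of -1.62 and -1.52, where 38.9% of all genes were called lower. MKI67, the marker of cycling cells, had 66.8, 47.3 and 43.6 CPM in D8 KO against 223, 218 and 213 CPM in D4 KO (log2 -2.05, SE 0.12, edgeR adjusted p 2.0e-12). CDK1, the kinase of mitotic entry, had 27.5, 23.7 and 19.8 CPM against 94.6, 98.6 and 100 CPM (log2 -2.05, SE 0.09). CDC6, which loads the replicative helicase, had 11.0, 8.84 and 8.12 CPM in D8 KO against 65.4, 66.7 and 64.7 CPM in D4 KO (log2 -2.82, SE 0.11). E2F1, the factor of the entry into S phase, fell by the same 2.82 (SE 0.11). D8 KO replicate 1 was the highest of its group for MKI67, CDK1, CDC6 and E2F1. CCNB2 and CDC20, whose promoters are printed above, fell by 1.10 and by 1.60 on the log2 scale. The falls were smaller for PCNA (log2 -1.51, SE 0.08) and for MCM2 (log2 -0.95, SE 0.06), both of the replication fork.

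Of 11 tested inhibitors of the cell cycle (of 12), 7 rose, 3 fell and 1 did not pass (median 0.61). CDKN1C, an inhibitor linked to tissue growth, had 48.7, 52.6 and 59.6 CPM in D8 KO against 15.8, 17.5 and 16.5 CPM in D4 KO (log2 1.69, SE 0.13, edgeR adjusted p 1.4e-10). CDKN1B rose by 1.43 (SE 0.08), BTG1, an antiproliferative factor, by 1.80 (SE 0.08), CDKN2B by 2.66 (SE 0.19) and CDKN1A, a target of p53, by 0.61 (SE 0.12). The 3 that fell were CDKN2C, RBL1 and RBL2.

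Pluripotency genes summed to 992, 911 and 873 CPM in D8 KO against 2730, 2688 and 2677 CPM in D4 KO. Of 19 members 18 fell and SALL2 alone did not pass, with a median of -2.49. POU5F1 had 3.62, 2.76 and 2.19 CPM in D8 KO against 211, 206 and 194 CPM in D4 KO (log2 -6.15, SE 0.16, edgeR adjusted p 8.0e-18). ESRG, a noncoding RNA of human stem cells, had 0.0618, 0.101 and 0.101 CPM against 32.8, 36.3 and 31.9 CPM (log2 -8.55, SE 0.16). SOX2 fell less, to 9.68, 9.38 and 9.71 CPM in D8 KO, against 43.0, 39.8 and 40.8 CPM in D4 KO (log2 -2.10, SE 0.09). NANOG was already low, with 0, 0.0576 and 0.0338 CPM in D8 KO against 2.08, 1.39 and 1.22 CPM in D4 KO (log2 -5.59, SE 0.35, and -6.44 without D8 KO replicate 2). FOXD3 had 1 count in D8 KO against 458 in D4 KO (ratio of D4 to D8 577, interval 103 to 22800, fitted log2 -8.67 and -10.44 without D8 KO replicate 2).

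The miR-302/367 cluster, a family of stem cell microRNAs, fell with them, and MIR133A1, a muscle microRNA, rose. The mature 3′ arms, from RefSeq (GRCh38.p14), are shown because 4 members of the cluster share a seed (bases 2 to 8, in capitals) and the fifth does not.
hsa-miR-302a-3p: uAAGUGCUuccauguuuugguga
hsa-miR-302b-3p: uAAGUGCUuccauguuuuaguag
hsa-miR-302c-3p: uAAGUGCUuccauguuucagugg
hsa-miR-302d-3p: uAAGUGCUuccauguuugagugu
hsa-miR-367-3p: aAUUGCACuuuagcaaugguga
hsa-miR-133a-3p: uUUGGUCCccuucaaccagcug
In that build the 5 arms of the cluster lie on chromosome 4 between positions 112647877 and 112648511, and miR-133a-3p at chr18:21825712-21825733, all on the minus strand. MIR302B had 1.10, 0.763 and 0.895 CPM in D8 KO against 234, 216 and 244 CPM in D4 KO (log2 -7.98, SE 0.18, edgeR adjusted p 6.8e-19). MIR367 had 1 count in D8 KO against 2435 in D4 KO (ratio of D4 to D8 3070, interval 550 to 121000, and a fitted log2 change of -11.09 that was -12.86 without D8 KO replicate 1). MIR302D had no count in D8 KO and 7.27, 7.50 and 7.24 CPM in D4 KO, at least 473-fold lower. MIR133A1 reached 20.0, 21.0 and 19.3 CPM in D8 KO against 0.0688, 0.0202 and 0 CPM in D4 KO. MIR302D and MIR133A1 were picked after their values were seen. In poly(A) libraries these loci count precursor or host transcripts and not mature microRNAs, and overlapping genes make the counts uncertain.

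Genes of early mesoderm and the primitive streak mostly declined, 15 of 21 tested (of 23) lower, 5 higher and 1 not called (median -1.86). EOMES, a T-box factor that starts the cardiac mesoderm, had 3.21, 2.29 and 1.49 CPM in D8 KO against 64.5, 62.3 and 65.7 CPM in D4 KO (log2 -4.78, SE 0.21, edgeR adjusted p 1.5e-14). LHX1, a homeodomain factor of the streak, had 2.84, 2.30 and 1.72 CPM against 64.4, 65.0 and 73.2 CPM (log2 -4.88, SE 0.13). CER1, a secreted inhibitor of NODAL and BMP, fell by 3.91 (SE 0.23) and MESP2, a factor of nascent mesoderm, by 3.43 (SE 0.20). MESP1, which marks the earliest heart mesoderm, had 1.34, 1.81 and 2.36 CPM in D8 KO against 3.99, 4.31 and 5.93 CPM in D4 KO (log2 -1.37, SE 0.23). The gene T (brachyury) was at most 1.02 CPM in every KO library of both days.

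In the WNT list 15 of 32 tested (of 33) were higher, 13 lower and 4 not called (median 0.25), where 36.1% of all genes were called higher and 38.9% lower. Ligands of the early streak fell close to silence. WNT3A had 2 counts in D8 KO against 705 in D4 KO (ratio of D4 to D8 444, interval 122 to 3670, fitted log2 -8.54 and -11.08 without D8 KO replicate 2), and WNT8A fell by 7.77 (SE 0.30). LGR5, a receptor that strengthens WNT signalling, had 1.42, 1.78 and 1.25 CPM in D8 KO against 114, 96.7 and 92.0 CPM in D4 KO (log2 -6.08, SE 0.23, edgeR adjusted p 1.2e-15). DKK1, a secreted WNT antagonist, rose by 4.25 (SE 0.19). AXIN2, a feedback target of the pathway, had 17.0, 20.1 and 21.2 CPM in D8 KO against 10.6, 12.8 and 11.8 CPM in D4 KO (log2 0.73, SE 0.09). LEF1, a transcription factor of the pathway, had 24.3, 26.4 and 29.1 CPM against 28.7, 25.8 and 24.0 CPM, which overlap (log2 0.02, edgeR adjusted p 0.90). SFRP2, a secreted WNT inhibitor, was among the 12 largest falls (log2 -6.36, SE 0.14).

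Of 20 BMP response genes 12 rose, 5 fell and 3 did not pass (median 0.48). ID3 rose by 0.63 (SE 0.14) and SMAD6 by 0.48 (SE 0.08), both direct targets of the pathway, while ID1 rose by 0.36 (SE 0.11), a call lost under scaling to total counts (0.19). NOG, a secreted BMP antagonist, rose by 2.77 (SE 0.18), and CHRD, another, fell by 1.49 (SE 0.11). In the NOTCH pathway 8 of 19 tested (of 20) rose, 10 fell and 1 did not pass (median -0.35). Its ligands differed, with DLL4 higher by 2.76 (SE 0.18) and DLL1 and DLL3 lower by log2 changes of -1.80 and -1.88, while the target HEY1 rose by 1.54 (SE 0.12). In the retinoic acid pathway 6 of 19 rose, 9 fell and 4 did not pass (median -0.42). CYP26A1, the enzyme that degrades retinoic acid, had 18.9, 14.0 and 9.61 CPM in D8 KO against 332, 290 and 300 CPM in D4 KO (log2 -4.44, SE 0.21, edgeR adjusted p 6.6e-14). RXRG, a retinoid receptor, rose by 4.72 (SE 0.31).

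Of 35 matrix genes 12 were higher, 17 lower and 6 not called (median -0.17, and -0.33 under scaling to total counts). Over all genes tested 36.1% were called higher and 38.9% lower. COL3A1, a fibrillar collagen, had 348, 368 and 286 CPM in D8 KO against 46.3, 18 and 9.57 CPM in D4 KO (log2 3.75, SE 0.34, edgeR adjusted p 2.2e-09). Its D4 KO libraries differed widely, and the log2 change was 4.60 without D4 KO replicate 1. LAMA4, a laminin chain of the basement membrane of muscle, had 110, 135 and 157 CPM in D8 KO against 2.72, 2.22 and 1.94 CPM in D4 KO (log2 5.85, SE 0.19). ELN, elastin, fell to 4.42, 3.73 and 2.94 CPM in D8 KO, against 108, 121 and 114 CPM in D4 KO (log2 -4.95, SE 0.11). COL2A1, a collagen better known from cartilage, had 1570, 1578 and 1497 CPM in D8 KO against 187, 252 and 193 CPM in D4 KO (log2 2.88, SE 0.11). COL1A1, another fibrillar collagen, had 463, 421 and 357 CPM in D8 KO against 513, 459 and 342 CPM in D4 KO, which overlap (log2 -0.08, edgeR adjusted p 0.59). FN1, fibronectin, also overlapped, with 6135, 4616 and 3784 CPM in D8 KO against 3842, 4368 and 3779 CPM in D4 KO (log2 0.28, edgeR adjusted p 0.052). It passed the test without D8 KO replicate 4 (0.43), without D4 KO replicate 2 (0.35), with no filter on low counts (0.30) and without mitochondrially encoded genes (0.32).

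Of 21 targets of p53, 10 rose, 6 fell and 5 did not pass, with a median of 0.11 that turned to -0.05 under scaling to total counts. ZMAT3 rose by 1.13 (SE 0.12), FDXR by 1.06 (SE 0.09) and PHLDA3 by 1.00 (SE 0.11), while MDM2, the inhibitor of p53, was lower (log2 -0.23, SE 0.07, edgeR adjusted p 0.0043). Of 22 genes of endoplasmic reticulum and amino acid stress 6 rose, 12 fell and 4 did not pass (median -0.34). PDIA4, a folding enzyme, had 248, 251 and 241 CPM in D8 KO against 585, 687 and 606 CPM in D4 KO (log2 -1.34, SE 0.06, edgeR adjusted p 7.1e-14). PSAT1, of serine synthesis, fell by 1.37 (SE 0.09), and ATF3, a stress-induced factor, rose by 1.55 (SE 0.13). ATF4, the factor of the amino acid response, had 276, 288 and 273 CPM in D8 KO and 290, 299 and 290 CPM in D4 KO (log2 -0.07, edgeR adjusted p 0.34), and under scaling to total counts it passed as lower (-0.23).

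Several splicing regulators of muscle rose beside QKI. Of 28 tested (of 29), 15 rose, 8 fell and 5 did not pass (median 0.27). RBM38, an RNA-binding target of p53 that also regulates muscle splicing, had 420, 477 and 511 CPM in D8 KO against 48.8, 48.0 and 46.8 CPM in D4 KO (log2 3.29, SE 0.09, edgeR adjusted p 2.1e-17). MBNL2, a muscleblind factor, had 28.1, 28.3 and 26.2 CPM against 2.66, 2.30 and 2.12 CPM (log2 3.54, SE 0.14). Its relative MBNL1 had 19.5, 21.8 and 24.3 CPM in D8 KO against 3.68, 3.21 and 3.88 CPM in D4 KO (log2 2.61, SE 0.11). RBFOX1 rose by 2.80 (SE 0.15), RBM24, a heart and muscle factor already at 39.2 to 41.9 CPM in D4 KO, by 2.11 (SE 0.14), and RBM20, which splices titin, by 0.89 (SE 0.11). Core parts of the spliceosome moved less. Of 32 tested proteins (of 33) of the U4/U6.U5 tri-snRNP and U1 snRNP, 9 rose, 16 fell and 7 did not pass (median -0.14). PRPF8, the catalytic centre's scaffold, was higher by only 0.18 (SE 0.06, edgeR adjusted p 0.0089), a call lost under scaling to total counts (0.02), and SNRNP200 was lower (log2 -0.23, SE 0.06). PRPF3, LUC7L and LUC7L3 fell by 1.18, 1.09 and 1.08 on the log2 scale.

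**Figure D2:**
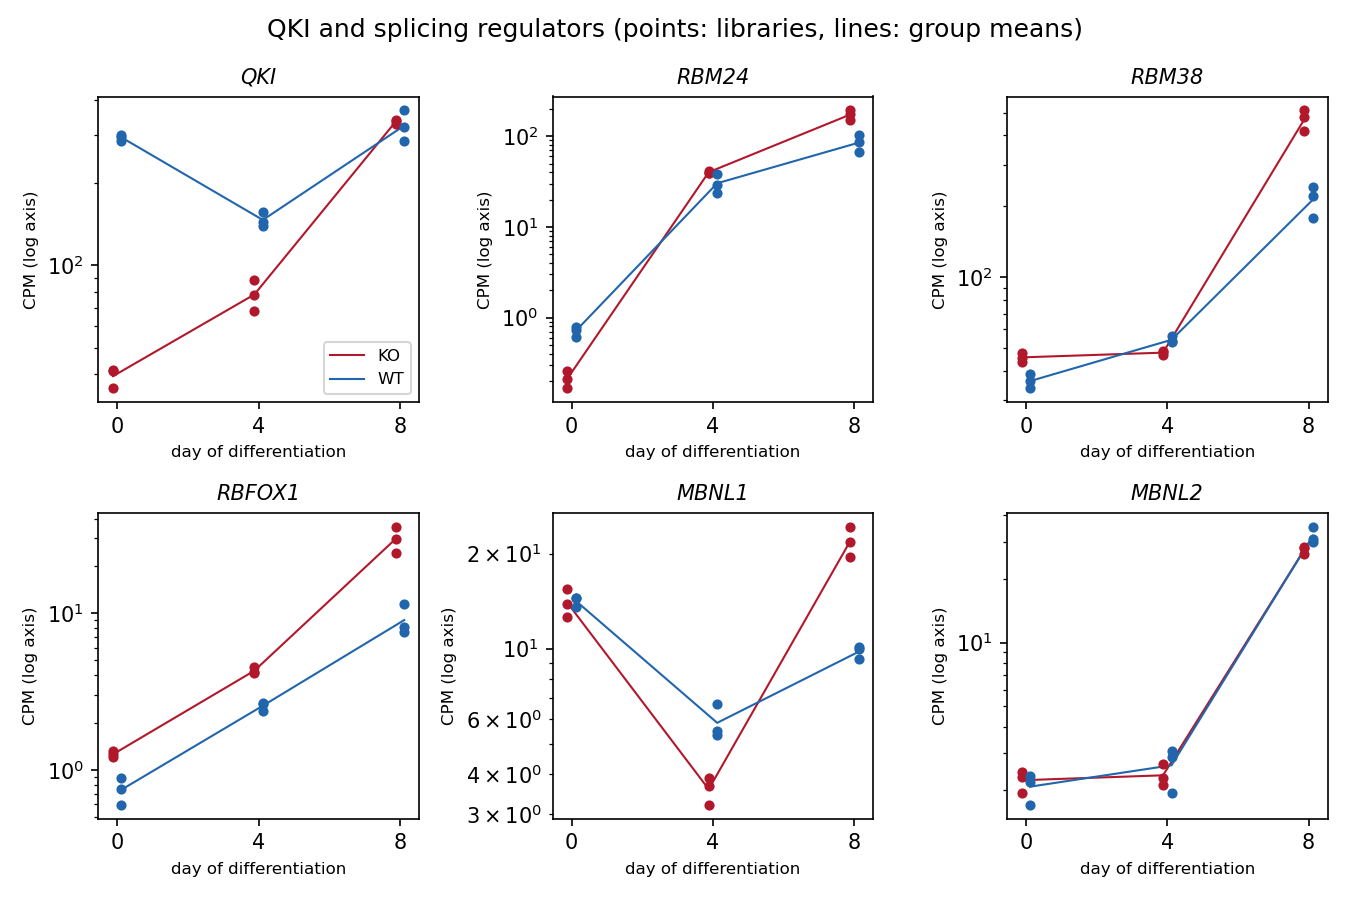
CPM on a log axis against the day of differentiation (0, 4 and 8) for QKI and 5 splicing regulators, in KO and in WT; points are libraries and lines join group means. All 6 genes were higher in D8 KO than in D4 KO, and the QKI panel starts at a mean of 39.4 CPM in KO and 293 CPM in WT at D0.

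Markers of other cell types were read for the whole of each list. Of 23 tested endothelial markers (of 24, PECAM1 not analysed here) 18 rose, 3 fell and 2 did not pass (median 2.25), and the list summed to 959, 949 and 856 CPM in D8 KO against 801, 908 and 819 CPM in D4 KO. CDH5, the cadherin of endothelial junctions, had 46.6, 41.5 and 35.6 CPM in D8 KO against 5.62, 8.09 and 7.28 CPM in D4 KO (log2 2.56, SE 0.13, edgeR adjusted p 1.1e-13). TEK, the angiopoietin receptor, rose by 1.93 (SE 0.15), while VWF, the clotting factor of endothelium, fell to 7.34, 5.64 and 4.93 CPM in D8 KO, against 226, 263 and 221 CPM in D4 KO (log2 -5.31, SE 0.15). VWF made up 4.93 to 7.34 CPM of the D8 KO sums and 221 to 263 CPM of the D4 KO sums.

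Of 21 tested markers of smooth muscle and fibroblasts (of 22) 14 rose, 6 fell and 1 did not pass (median 0.73), and they summed to 2567, 2546 and 2322 CPM in D8 KO against 1770, 1708 and 1509 CPM in D4 KO. ACTA2, smooth muscle actin, which early cardiomyocytes also express, had 676, 689 and 660 CPM in D8 KO against 3.11, 3.23 and 2.88 CPM in D4 KO (log2 7.78, SE 0.15, edgeR adjusted p 1.2e-19). PDGFRB, a receptor of pericytes, was lower (log2 -0.42, SE 0.12). Of 27 tested endoderm markers (of 29) 9 were higher, 11 lower and 7 not called, close to the 36.1% higher and 38.9% lower over all genes. Their sums were 1507, 1266 and 1267 CPM in D8 KO against 1452, 1594 and 1490 CPM in D4 KO. SOX17, of early endoderm, had 1.87, 1.68 and 1.81 CPM in D8 KO against 56.5, 63.1 and 65.7 CPM in D4 KO (log2 -5.11, SE 0.12). The 3 members with the largest rises were secreted proteins. AFP, alpha-fetoprotein, had 30.4, 28.5 and 24.5 CPM in D8 KO against 0.155, 0.141 and 0.0654 CPM in D4 KO (log2 7.79, SE 0.49). It averaged 43.1 ± 23.3 CPM in D8 WT (SD, n = 3). D8 nuclear RNA held 156, 376 and 141 CPM of AFP in KO and 6.16, 8.63 and 9.41 CPM in WT. In the KO course TTR, transthyretin, rose by 7.54 (SE 0.25) and SERPINA1, a protease inhibitor, by 8.23 (SE 0.51, and 9.12 without D4 KO replicate 3). The cardiac genes above rose in the same libraries, and the part of these other markers in their values was not tested.

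Surface ectoderm and amnion markers summed to 977, 943 and 976 CPM in D8 KO against 515, 520 and 520 CPM in D4 KO, with 14 of 24 tested (of 26) higher, 6 lower and 4 not called. Their median log2 change was 0.83, and 0.37 with a filter at 1 CPM in 3 libraries. IGFBP3, a binding protein of growth factors, made up 145 to 180 CPM of the D8 sums, while TFAP2A, a defining factor of this fate, was at 1.99, 0.964 and 1.42 CPM in D8 KO and 3.21, 3.33 and 4.12 CPM in D4 KO (log2 -1.28, SE 0.30). Of 15 tested epicardial markers (of 17, SCX not analysed here) 5 rose, 5 fell and 5 did not pass, with sums of 1374, 1284 and 1189 CPM in D8 KO against 1241, 1316 and 1289 CPM in D4 KO. WT1, a factor of the epicardium, stood at 0.794 to 1.84 CPM in D8 KO and 0.0436 to 0.0605 CPM in D4 KO (log2 4.70, SE 0.46). Of 17 tested neural markers (of 23) 5 rose, 10 fell and 2 did not pass, with sums of 1106, 1214 and 1076 CPM in D8 KO against 636, 644 and 628 CPM in D4 KO. NES, an intermediate filament that developing muscle also expresses, averaged 979 CPM in D8 KO and 293 CPM in D4 KO. The defining factors PAX6 and SOX1 were at most 0.12 CPM in any KO library of both days and were not tested. Of 13 tested markers of presomitic and skeletal muscle (of 20) 3 rose, 8 fell and 2 did not pass, with sums of 13 to 18 CPM in D8 KO and 32 to 37 CPM in D4 KO and with MYOD1, the master factor of skeletal muscle, at 0 in every D8 KO library. PAX3, a factor of somites, rose by 1.83 (SE 0.50, edgeR adjusted p 0.0026) at levels of at most 0.861 CPM, with libraries that overlapped, and by 2.58 without D4 KO replicate 3. Of 16 tested blood markers (of 21) 2 rose, 8 fell and 6 did not pass, with sums of at most 21 CPM in D8 KO and at most 44 CPM in D4 KO, and the embryonic globin HBZ was at 0 in every D8 KO library.

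**Figure D3:**
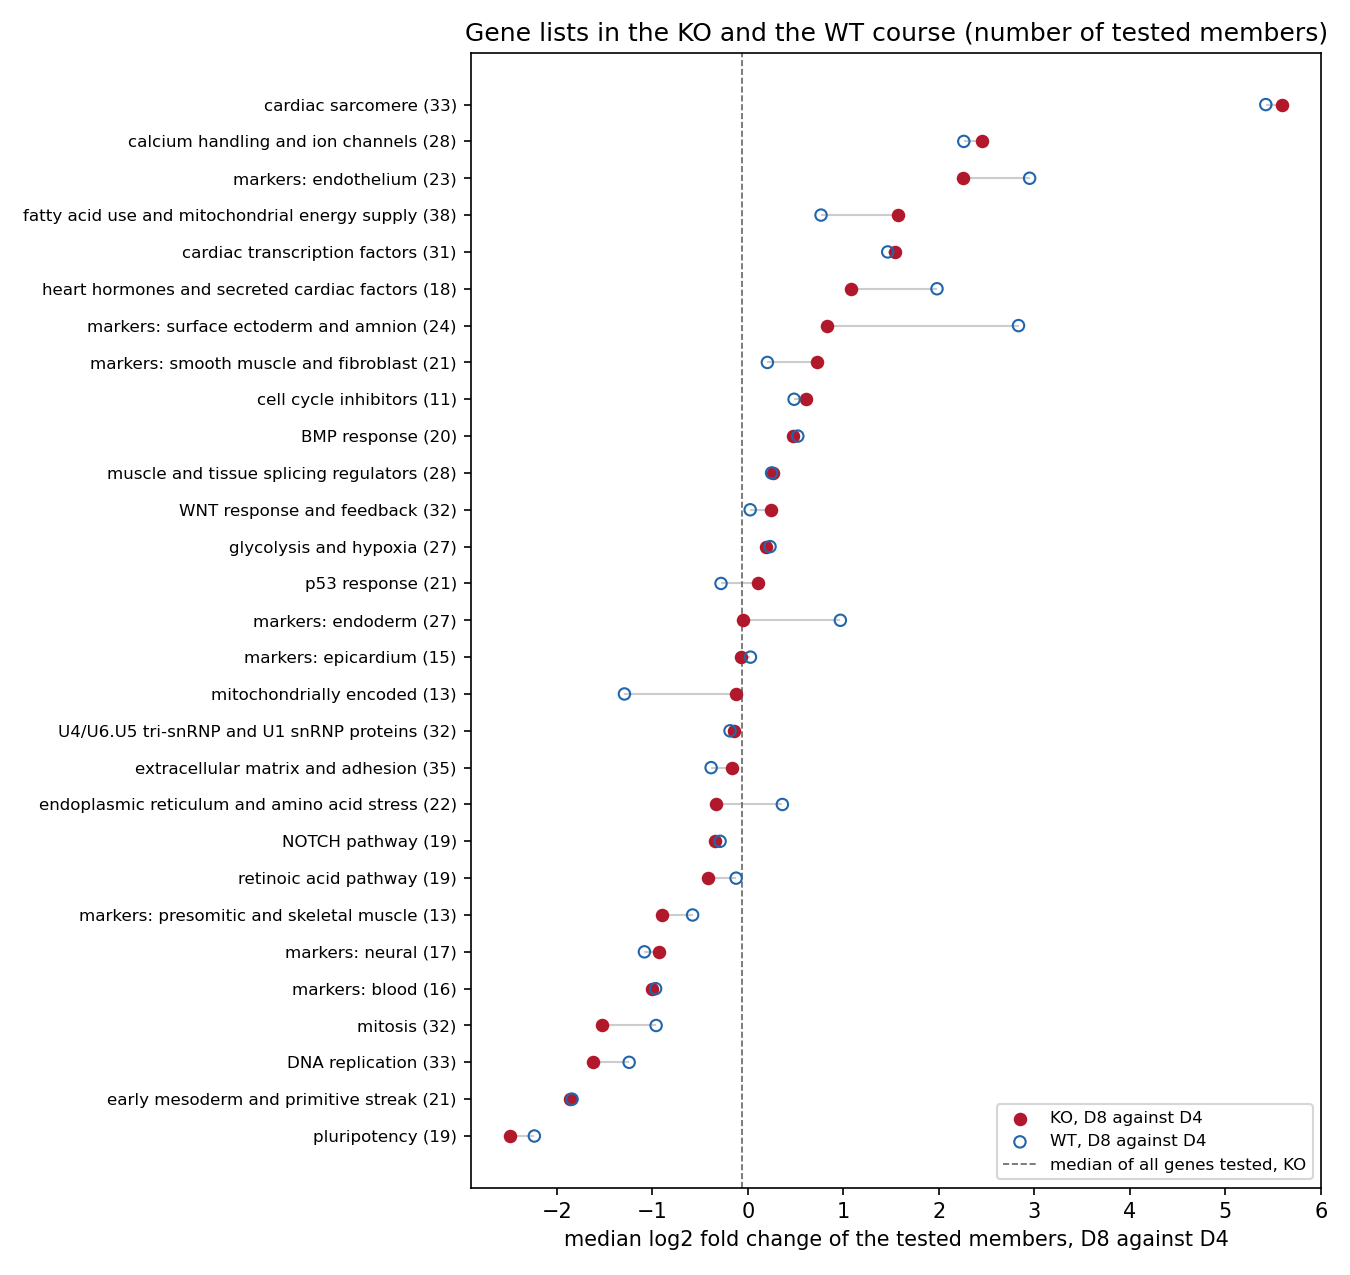
Median log2 fold change of the tested members of each of the 29 gene lists at D8 against D4, filled points for the KO course and open points for the WT course, with the number of tested members in parentheses; the dashed line is the median of all genes tested in the KO course (-0.06). Sarcomere genes stand highest in the KO course at 5.60 and pluripotency genes lowest at -2.49, and the widest gap between the courses is that of surface ectoderm and amnion, at 0.83 in KO and 2.83 in WT.

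Some genes were switched from near silence to a clear level, or the reverse. Near silence was taken as at most 0.2 CPM in every library of one KO day, with a mean of at least 10 CPM on the other, a description without a test. By this limit 24 genes were present at D8 and near silence at D4 within KO, and 10 were the reverse. The numbers were 13 and 5 with a limit of 0.1 CPM and 51 and 29 with 0.5 CPM. The first set was led by SMPX, A2M, ASB2, VCAM1, WNT2 and SGPP2, an enzyme of sphingolipid breakdown at 54.8, 55.9 and 62.1 CPM in D8 KO and at most 0.131 CPM in D4 KO. The second set was led by CDH22, a cadherin at 37.4, 46.2 and 46.7 CPM in D4 KO, followed by ESRG, EGFLAM-AS4, ZNF558, MIR367 and KLKB1. WT and D0 libraries did not enter this limit. These leading genes of both sets, except ZNF558, moved in the same direction in the WT course. SMPX averaged 111 CPM in D8 WT and 0.0683 CPM in D4 WT, and CDH22 0.0370 and 25.9 CPM. ESRG and KLKB1 were higher still in D0 KO, at means of 1664 and 41.3 CPM. EGFLAM-AS4 had 1 count in D8 KO against 3706 in D4 KO (ratio of D4 to D8 4670, interval 837 to 184000, fitted log2 -11.71 and -13.49 without D8 KO replicate 4). It is an antisense gene, and without a stated strand setting its reads cannot be told from those of its partner.

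ZNF558, a zinc finger protein, was well above that limit in the other groups. It had 0, 0 and 0.0338 CPM in D8 KO against 16.3, 17.6 and 17.4 CPM in D4 KO, which is 2 counts against 2619 (ratio of D4 to D8 1650, interval 456 to 13600). Its fitted log2 change was -10.42, and -12.98 without D8 KO replicate 4. Its means were 10.9 CPM in D0 KO and 24.4, 36.7 and 34.2 CPM in WT at D0, D4 and D8. In D8 nuclear RNA the libraries labelled KO held 21.8, 27.6 and 24.3 CPM and the WT ones 25.5, 24.7 and 24.5 CPM. The nuclear and whole-cell D8 libraries that carry the same KO label therefore differed in this gene. MEG3, an imprinted noncoding RNA, had 1.81, 1.21 and 1.08 CPM in D8 KO against 462, 433 and 470 CPM in D4 KO (log2 -8.37, SE 0.24, edgeR adjusted p 2.1e-17), with 13.0, 8.38 and 10.3 CPM in D8 nuclear KO RNA. NNAT, also imprinted, had no count in D8 KO against 6.69, 7.34 and 8.13 CPM in D4 KO, at least 473-fold lower, and 1.56, 1.31 and 0.667 CPM in D8 nuclear KO RNA.

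**Figure D4:**
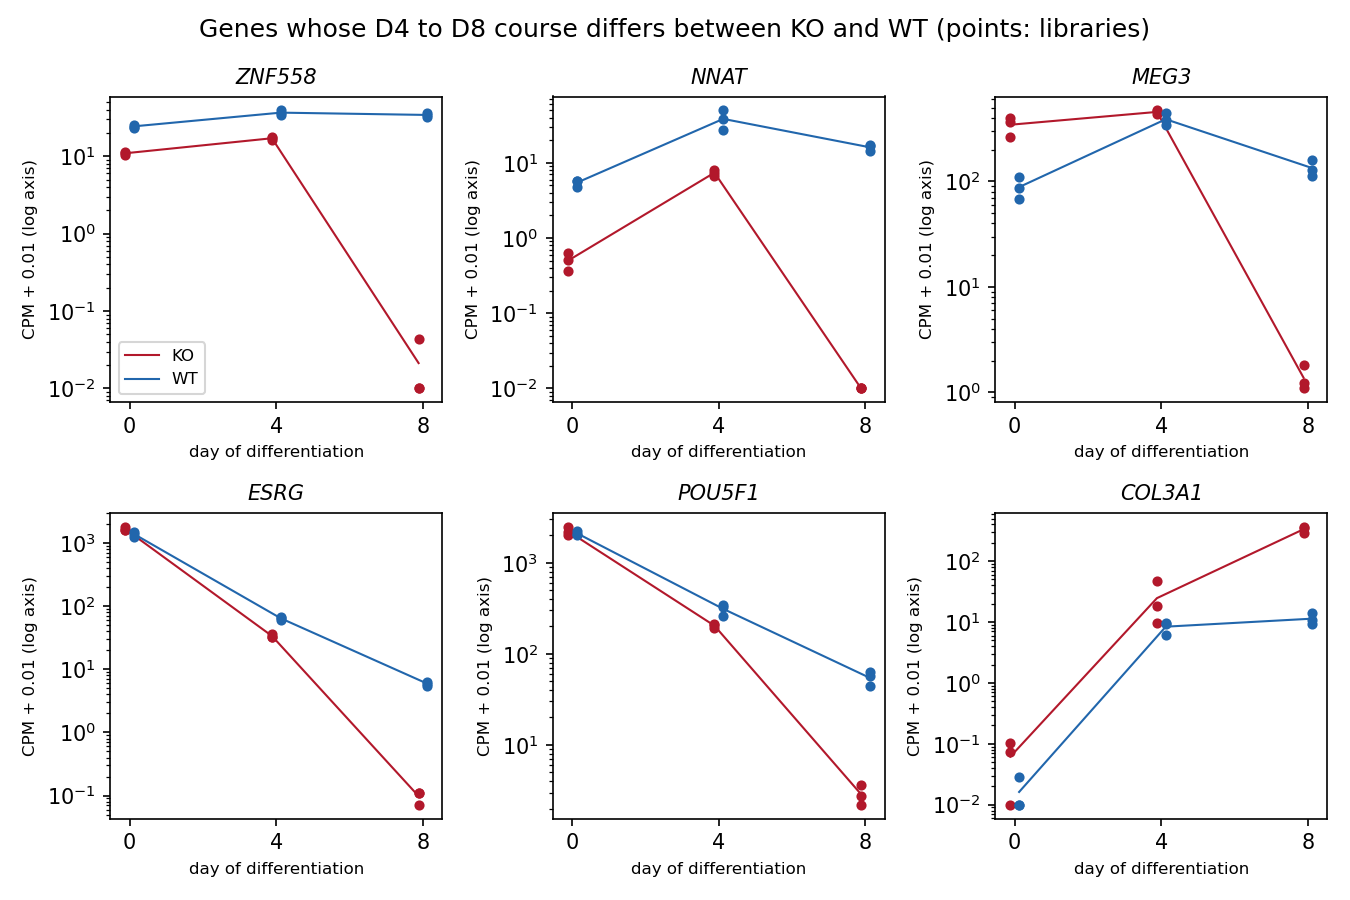
CPM plus 0.01, on a log axis, against the day of differentiation (0, 4 and 8) for 6 genes whose D4 to D8 course differed between KO and WT; points are libraries, lines join group means, and points at the bottom of the ZNF558, NNAT and COL3A1 panels are libraries at 0 CPM. NNAT, MEG3, ESRG and POU5F1 fell further in KO than in WT after D4, and COL3A1 rose further. ZNF558 fell in KO and was not called in WT (log2 -0.10, edgeR adjusted p 0.305).

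Set beside the WT course, where 14975 genes were called (68.8% of those tested), most of the large steps were shared in direction. Of the genes at least 2-fold higher in the KO course, 2057 were also called so in the WT course, which is 62.8% of the KO set and 68.1% of the WT set. Of those at least 2-fold lower, 2625 were shared, 55.1% of the KO set and 79.8% of the WT set. The difference between the courses was called for 9037 genes (41.5% of those tested), with 4267 (19.6%) moving upward relative to WT and 4770 (21.9%) downward. The share of upward calls was 47.2%, and it was 24.9% under scaling to total counts, 52% under RLE size factors and 52.6% with DESeq2, so which direction held the majority depended on the scaling. Differences of at least 2-fold were called for 939 genes upward (4.32%) and 2144 downward (9.85%). Both courses and their difference were called in opposite senses for 358 genes higher in KO and lower in WT (1.65%) and for 539 genes lower in KO and higher in WT (2.48%). The same 12 libraries enter these 3 comparisons, and genotype and CHIR dose cannot be told apart in the difference.

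Energy genes rose further in the KO course, with 29 of 38 members called higher and 1 lower in the difference, and medians of 1.57 in KO and 0.77 in WT. That 1 lower was LPL, a lipase that frees fatty acids. Mitochondrially encoded RNA differed in the same direction, 12 of 13 higher, with medians of -0.12 in KO and -1.29 in WT. The mitochondrial share of counts was 9.19% in D8 KO and 11.4% in D4 KO, against 7.56% in D8 WT and 17.3% in D4 WT. Mitosis genes fell further in the KO course, with 30 of 32 called lower in the difference, and replication genes with 19 lower and 2 higher of 33. MKI67 averaged 52.6 ± 12.5 CPM in D8 KO and 218 ± 4.8 CPM in D4 KO, against 114 ± 8.3 CPM in D8 WT and 310 ± 17 CPM in D4 WT (SD, n = 3 each). Sarcomere genes had 12 of 33 called higher and 2 lower, the 2 being ACTN2 and ANKRD1, and their medians were 5.60 in KO and 5.42 in WT.

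Amnion and surface ectoderm markers differed the other way, with 20 of 24 called lower in the difference and 4 not called, at medians of 0.83 in KO and 2.83 in WT. GABRP, a subunit of a receptor for GABA, had 3.18, 1.11 and 5.20 CPM in D8 KO against 1.17, 1.13 and 1.33 CPM in D4 KO, and averaged 290 ± 111 CPM in D8 WT and 2.85 ± 2.40 CPM in D4 WT (SD, n = 3 each). The courses differed by -5.25 (log2, edgeR adjusted p 1.6e-05), and by -6.26 without D4 WT replicate 1. The call of GABRP within KO was lost in 4 of the 6 fits that left out 1 KO library, with log2 changes down to 0.82 against 1.36 with all 6. VTCN1, an inhibitor of T cells, and TFAP2A differed by -4.71 and -4.56, and VTCN1 by -5.48 without D4 WT replicate 1. Endothelial markers were called lower for 12 of 23 and higher for 3. Stress genes of the endoplasmic reticulum and amino acid response were called lower for 13 of 22 and not called for 9, with medians of -0.34 in KO and 0.36 in WT.

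TBX5 was among the genes that rose furthest relative to WT, of those called with a mean of at least 10 CPM over the 12 libraries. It rose by 7.19 in KO and by 4.06 in WT, a difference of 3.13 (log2, edgeR adjusted p 1.2e-06). TNNI3, the adult cardiac troponin I, had 20.8, 26.6 and 28.8 CPM in D8 KO against 1.81, 2.26 and 1.98 CPM in D4 KO, and averaged 13.8 ± 1.3 CPM in D8 WT and 6.37 ± 0.64 CPM in D4 WT (difference 2.55, edgeR adjusted p 1.1e-08). The widest positive difference by that limit was that of GPR55, a lipid receptor, which fell in both courses. In KO it went to 1.62, 1.77 and 2.03 CPM at D8, against 37.1, 36.7 and 33.3 CPM at D4. In WT it went to 0.011 CPM at D8, against 13.3 CPM at D4. Its fitted difference of 5.60 rests on the few counts in D8 WT and was 6.30 without D8 WT replicate 4.

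**Figure D5:**
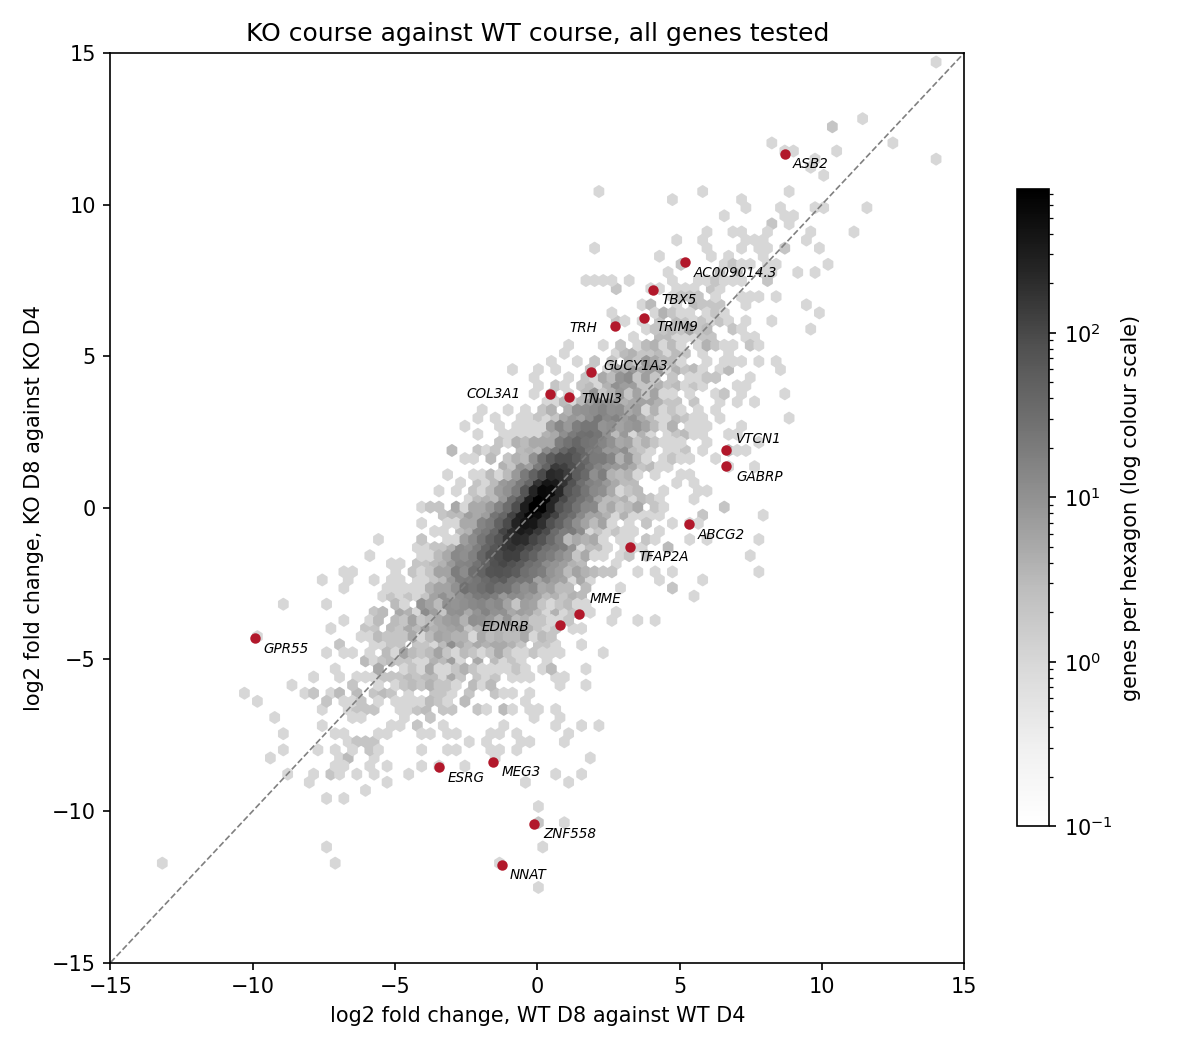
Fitted log2 fold change of every tested gene at D8 against D4, KO course on the vertical axis and WT course on the horizontal one, with grey hexagons for the number of genes on a log colour scale and red points for genes named by the highest and lowest differences among those called with a mean of at least 10 CPM. Genes on the dashed line changed equally in both; NNAT and ZNF558 lie far below it, at -11.77 and -10.42 in KO against -1.25 and -0.10 in WT, and fitted values of genes with almost no counts on one day are not bounds.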

How the data were processed

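The authors deposited a table of whole-number read counts per gene, which was used as deposited. Per the submitters' processing notes, UMI-tools, cutadapt, STAR, featureCounts and DESeq were named, with the build hg19. No source used here gives their versions, the annotation release or the strand setting. Deposited tables of splicing events were left out. Library totals were 42065821 to 72694787 counts in the 6 KO libraries at D8 and D4, and their number limits the precision.

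Genes with enough counts (filterByExpr) were fitted with edgeR 4.0.16 in R 4.3.3 on all 18 whole-cell libraries, with TMM scaling and 6 group means. The quasi-likelihood test was adjusted by Benjamini-Hochberg over all genes tested, and 0.05 was the threshold. D8 was set against D4 in KO and in WT, and the courses against each other. CPM is counts per 1000000 of the TMM-scaled total. A group with 0 counts was set at a floor of 3 counts over the group. The test was also run on simulated counts in which few genes changed, up and down alike, in D8 KO only. That run cannot check the scaling or the calls under a change as wide as the one seen here. DESeq2 1.42.0, other scalings and filters, and fits without each library were alternatives. Deviations from the group mean correlated at 0.032 and 0.038 between same-numbered D8 KO and D4 KO libraries, and at -0.052 to 0.020 between differently numbered ones. So few shared numbers cannot settle whether a number pairs the libraries, and the main fit had no block.

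The members and lists were chosen with earlier results of these data known. Named genes were QKI, the 12 highest and 12 lowest changes in KO among called genes with a mean of at least 10 CPM and no overlap, and the 10 highest and 10 lowest differences between the courses by the same mean. Added were the anchor genes of each list, its 4 called members with the largest change at 1 CPM or more, and the 6 leading genes near silence per direction. Members outside that rule, such as MYOM3, the genes that fell in otherwise rising lists, LPL, NES and the microRNA loci other than MIR302B and MIR367, were named after their values were seen. CCNB2 and CDC20, whose promoters are printed, were also outside that rule. Promoter and microRNA sequences came from RefSeq for GRCh38.p14, and no coordinates were moved between builds. Some genes that met these rules are not reported here.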

Additional observations from a re-analysis of the deposited data

Results flagged for a closer look

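These results are listed because the step from D4 to D8 differed between KO and WT by a test of that difference itself (edgeR quasi-likelihood test, Benjamini-Hochberg adjustment over all genes tested). In all, 9037 genes passed it. Genotype and CHIR dose cannot be told apart in any of them, and no cause was tested. Values are log2 changes of the KO course minus those of the WT course.

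NNAT, an imprinted gene, differed by -10.51 and ZNF558 by -10.32, fitted values that rest on 0 and 2 counts in D8 KO and are not bounds. ZNF558 stood at -12.88 without D8 KO replicate 4. MEG3 differed by -6.83 and ESRG by -5.11. The cell surface proteins MME, a peptidase, and EDNRB, an endothelin receptor, rose in WT while they fell in KO, with differences of -4.95 and -4.68. Genes that rose in WT and rose less, fell or did not pass in KO were ABCG2, a drug transporter, at -5.88, GABRP at -5.25, VTCN1 at -4.71 and TFAP2A at -4.56. TFAP2C, a relative of TFAP2A, differed by -2.19. Of the amino acid stress genes, CHAC1 differed by -2.08 and ASNS, asparagine synthetase, by -0.79, both lower over the KO course and higher over the WT course.

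The reverse pattern, higher in KO and lower in WT, held for PRPF8 at 0.36, the WNT target AXIN2 at 1.06 and the p53 targets FDXR at 1.42, CDKN1A at 1.44 and PHLDA3 at 1.68. PAX3 showed it too at 3.59, on levels of at most 0.861 CPM in KO. Under scaling to total counts PRPF8 no longer passed within KO (0.02).

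Other genes rose further in KO than in WT. TRIM9, a ubiquitin ligase, differed by 2.49, TNNI3 by 2.55, GUCY1A3, a subunit of the nitric oxide receptor, by 2.60, AC009014.3 by 2.91, ASB2 by 2.98, TBX5 by 3.13, TRH, thyrotropin-releasing hormone, by 3.26 and COL3A1 by 3.31. Without D4 KO replicate 1, GUCY1A3 stood at 3.25 and COL3A1 at 4.16. The ASB2 value rests on 6 counts in D4 KO, a mean of 0.0385 CPM against 0.150 CPM in D4 WT. At D8 ASB2 averaged 134 CPM in KO and 61.8 CPM in WT. GPR55 differed by 5.60 because it fell less in KO than in WT.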

How the results depend on the processing

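The count of called genes in the KO course stayed within 1.5 times of its value under each alternative run. No gene value that was re-run turned its direction while called. Gene values were re-run for genes named by the rules for the KO course and for those named by the highest and lowest differences. List medians and counts were re-run in the KO course only. Other differences between the courses, such as those of PRPF8, AXIN2, FDXR, CDKN1A and ACTN2, and list counts in the difference were not re-run. Their dependence on the scaling was therefore not tested. Leaving out each library in turn gave 15634 to 16126 called genes in KO, 14044 to 14523 in WT and 7942 to 9389 for the difference between the courses. Under scaling to total counts 2355 genes were called higher in the difference, and 584 at least 2-fold higher. The list medians in KO were then 2.29 for calcium handling, -2.65 for pluripotency, 1.41 for energy supply, -1.78 for DNA replication, 0.031 for glycolysis, 0.085 for WNT, 0.32 for BMP, -0.51 for NOTCH, -0.58 for retinoic acid, -0.33 for the matrix, -0.28 for mitochondrially encoded genes, -0.049 for p53, -0.50 for endoplasmic reticulum stress, 0.11 for splicing regulators and -0.30 for snRNP proteins. Of the snRNP proteins 5 were then called higher. A filter at 1 CPM, which tests fewer genes, gave 5.96 for the sarcomere, 2.30 for calcium handling, 0.13 for WNT, 0.53 for smooth muscle and 0.37 for surface ectoderm and amnion. Fitting the KO libraries alone gave -0.14 for neural markers. That fit filtered low counts anew, so its median covers only the members still tested, and the cause of the shift was not tested. Without single libraries the medians ran from 5.52 to 6.02 for the sarcomere, 2.39 to 2.56 for calcium handling, -0.36 to -0.25 for endoplasmic reticulum stress and 0.10 to 0.24 for p53, and from -0.19 to -0.017 for mitochondrially encoded genes. Near silence held 13 and 5 genes at 0.1 CPM and 51 and 29 at 0.5 CPM. With the replicate number as a block, which shares only 2 numbers, 16108 genes were called in KO, 14565 in WT and 9570 for the difference. With that block GABRP lost its call in KO (1.03, edgeR adjusted p 0.055) and FN1 gained one (0.29, edgeR adjusted p 0.024). TBX18 lost its call without D8 KO replicate 2 (0.68), and HBE1 was called without D8 KO replicate 1 (-1.59). Leaving out the mitochondrially encoded genes gives no value for their own list.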
